A study of Mus musculus with 12 samples.

Results

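The 43 genes described here encode proteins of mitosis and chromosome segregation: cyclins of the G2 to M transition, chromosome scaffold proteins, kinetochore and spindle proteins, and proteins of cytokinesis. They were chosen by gene symbol for their known functions, with earlier results of these data known. All 43 were found among the 23420 gene rows of the count table. All 43 also passed the filter on low counts that left 11806 genes for testing. Bulk RNA-seq libraries had been made from macrophages sorted from bone marrow nucleated cells of mouse 7 and mouse 19, both with a C57BL/6 background. MSC-treated tibias, treated with mesenchymal stromal cells (MSCs, supporting cells of the marrow), gave 3 libraries per mouse, labelled as MSC-educated macrophages. Untreated femurs of the same 2 mice gave the other 3 libraries per mouse, labelled as macrophages. The series title sets the work in leukaemic marrow, but neither the disease state of these 2 animals nor the route and timing of the MSCs is stated in the sources used here. Treatment and bone type cannot be told apart, since only tibias were treated and only femurs were not.

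In mitosis, the kinase Cdk1 with cyclins A and B drives chromosome condensation and spindle assembly, and the kinetochore holds each chromosome to spindle microtubules. The spindle checkpoint delays anaphase until all chromosomes are attached, after which the anaphase-promoting complex marks cyclin B and securin for destruction and the cell divides. Most of these genes are transcribed together late in the cell cycle and are kept low in cells that have left it, so in marrow they are used as a readout of dividing progenitors and, in macrophages, of local self-renewal.

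Promoter stretches of 6 members are shown first, because the members share more than their function and because these 6 are among those whose tibia over femur change differed between the mice. They run from 210 bases before to 25 bases after the RefSeq start site on GRCm38.p6, the assembly of the mm10 build named in the submitters' processing notes. Capitals mark the cell cycle genes homology region (CHR), searched as TTTGAA, its reverse complement TTCAAA, or TTTAAA, and the CCAAT box, searched as CCAAT or its reverse complement ATTGG.
Smc2, chr4:52439011-52439245, plus strand: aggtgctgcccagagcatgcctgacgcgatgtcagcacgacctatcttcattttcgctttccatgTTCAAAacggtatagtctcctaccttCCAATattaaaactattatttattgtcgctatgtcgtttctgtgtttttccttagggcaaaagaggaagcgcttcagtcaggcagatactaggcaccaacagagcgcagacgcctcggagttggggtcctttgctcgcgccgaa
Prc1, chr7:80294241-80294475, plus strand: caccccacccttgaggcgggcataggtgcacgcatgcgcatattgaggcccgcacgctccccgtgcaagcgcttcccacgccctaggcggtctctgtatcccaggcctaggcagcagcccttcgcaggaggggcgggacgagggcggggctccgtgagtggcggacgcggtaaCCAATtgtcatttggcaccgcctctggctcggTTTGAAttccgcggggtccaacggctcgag
Cenpe, chr3:135212353-135212587, plus strand: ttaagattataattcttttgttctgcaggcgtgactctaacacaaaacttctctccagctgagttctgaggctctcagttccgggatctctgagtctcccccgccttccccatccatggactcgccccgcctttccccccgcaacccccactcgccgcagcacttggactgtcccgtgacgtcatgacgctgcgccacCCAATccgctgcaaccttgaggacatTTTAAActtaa
Kif11, chr19:37376172-37376406, plus strand: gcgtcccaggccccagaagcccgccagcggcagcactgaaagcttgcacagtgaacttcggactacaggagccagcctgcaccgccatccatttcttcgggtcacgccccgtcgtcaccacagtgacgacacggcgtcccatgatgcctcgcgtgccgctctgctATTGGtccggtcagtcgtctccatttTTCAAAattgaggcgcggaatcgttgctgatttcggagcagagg
Mki67, chr7:135716355-135716589, minus strand: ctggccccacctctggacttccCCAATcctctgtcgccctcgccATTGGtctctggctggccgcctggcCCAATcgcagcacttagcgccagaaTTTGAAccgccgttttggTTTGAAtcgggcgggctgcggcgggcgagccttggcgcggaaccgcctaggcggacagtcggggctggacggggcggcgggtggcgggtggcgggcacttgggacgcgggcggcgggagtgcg
Ccnb2, chr9:70421530-70421764, minus strand: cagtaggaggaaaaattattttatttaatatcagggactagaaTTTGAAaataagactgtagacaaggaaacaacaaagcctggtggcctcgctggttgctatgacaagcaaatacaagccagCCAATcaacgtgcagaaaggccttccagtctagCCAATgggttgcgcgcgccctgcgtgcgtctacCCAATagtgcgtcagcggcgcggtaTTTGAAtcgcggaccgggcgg
RefSeq promoter windows of 300 bases, 250 before and 50 after the start, were at hand for 35 of the 43 members, in 40 windows. A CHR match lay in 77.5% of these windows, against 27.6% of the 32851 windows of the whole promoter table. CCAAT matches were present in 80.0% of member windows and 37.4% of all windows. Windows with 2 or more CCAAT matches made up 50% of the member windows and 11.7% of the whole table. Both motifs stood in 67.5% of member windows and 10.7% of all windows, and in 1 place a CHR match and a CCAAT match overlapped. Of 109 other mitosis genes, 83 had windows, 90 in all. Their shares lay between those of the members and of the whole table: 50% with a CHR match, 58.9% with CCAAT, 33.3% with 2 or more CCAAT matches and 36.7% with both motifs. A match is a run of letters and not a site shown to be bound. Incenp, Cdc25c, Smc4, Tpx2, Kif20a, Spc24, Aurkb and Ccna2 are the other 8 members.

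Total counts per library ran from 9773455 to 14869150, and 13524 to 13902 genes had a count. The members took 0.770 to 0.955% of a library's counts, with between 85 and 21659 counts per member and library. Some macrophage genes were abundant in all 12 libraries. Csf1r, the receptor for the macrophage growth factor, lay between 783 and 1128 CPM (counts over library size, scaled to 1e+06). Emr1, which encodes the F4/80 antigen, lay between 240.0 and 365 CPM. Other genes of the macrophage list were low: Cd163 lay between 1.39 and 3.72 CPM, and Mertk reached at most 12.1 CPM. Mrc1 lay between 10.6 and 21.4 CPM and Vcam1 between 11.4 and 21.1 CPM. Genes of neutrophil granules were also abundant, and the 11 of them in the table summed to between 23109 and 37938 CPM per library. Of that sum, Chi3l3 held 5099 to 7091 CPM, S100a8 3302 to 6464 CPM and S100a9 4496 to 8590 CPM. The 16 macrophage genes summed to 17330 to 21240 CPM. Of these, Lyz2, a lysozyme gene that neutrophils also express, made up 12489 to 15789 CPM. Neither sum measures a share of cells. All CPM values are counts over library sizes scaled by the trimmed mean of M values (TMM). The p-values below measure the spread between libraries: the labels do not say whether the 3 libraries of 1 bone are separate sorts, and they come from 1 animal. In bulk RNA, fewer cells of a type and less RNA per cell cannot be told apart.

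Summed over the 43 members, the level was 8694 ± 162 CPM in tibia and 7877 ± 125 CPM in femur of mouse 7 (mean ± SD, n = 3 libraries each). In mouse 19 it was 8723 ± 183 CPM in tibia and 9497 ± 71.2 CPM in femur. The tibia libraries thus lay above all femur libraries in mouse 7 and below all of them in mouse 19. Between the mice, the tibias ranged from 8525 to 8847 CPM in mouse 7 and from 8590 to 8932 CPM in mouse 19, and these ranges overlapped. The femurs ranged from 7734 to 7965 CPM in mouse 7 and from 9416 to 9549 CPM in mouse 19, with a wide gap between them. The sum in mouse 7 over that in mouse 19 was 0.997 for tibias and 0.829 for femurs.

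**Figure D1:**
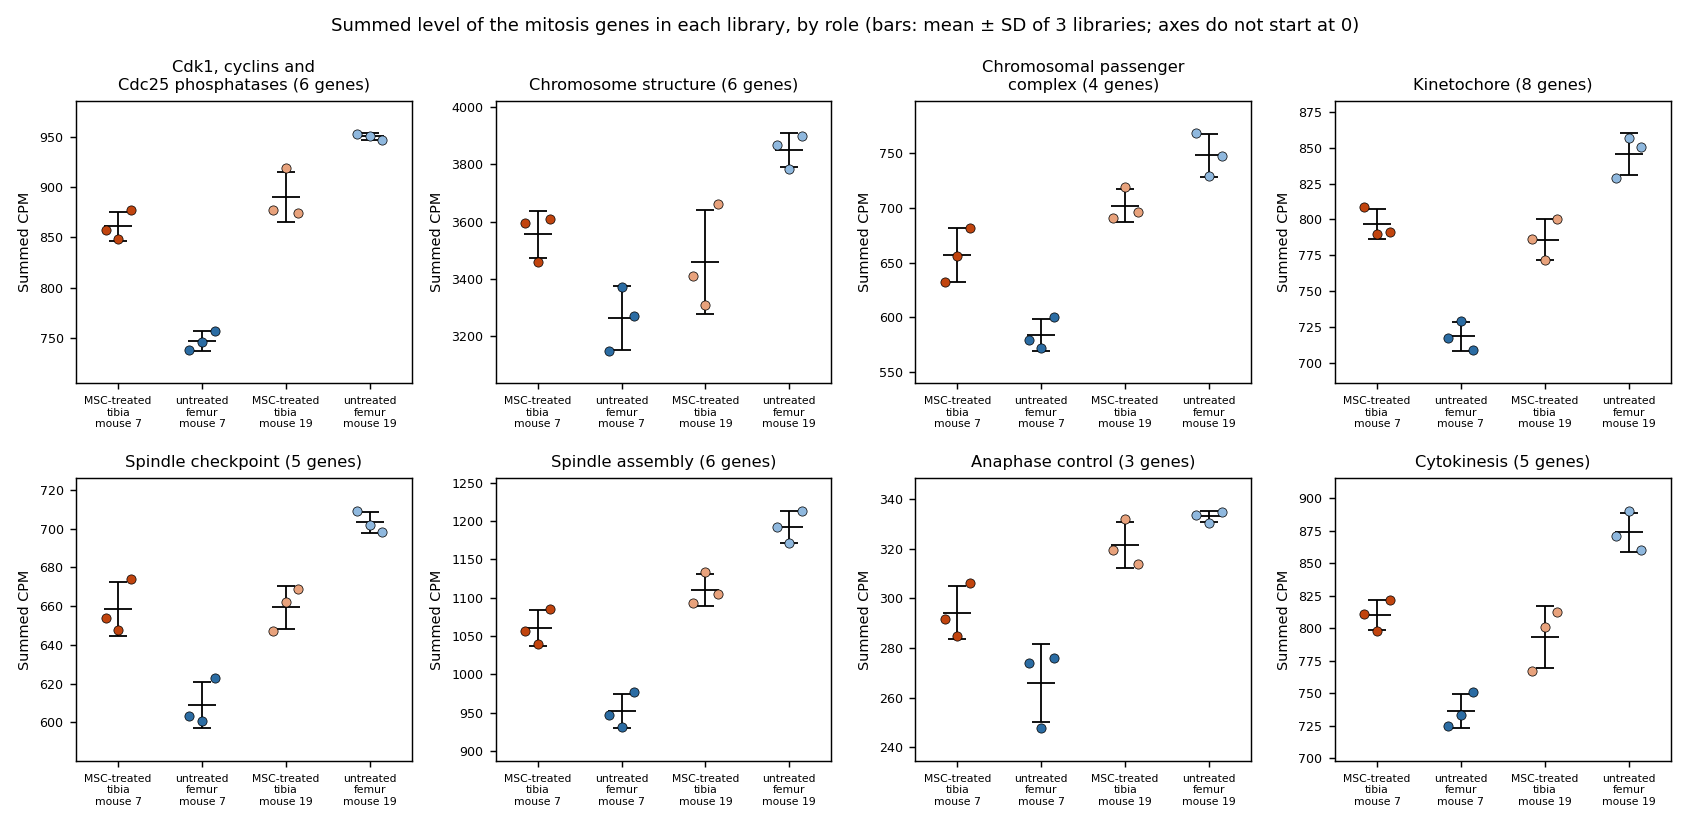
Each panel plots the summed CPM of 1 role group of the 43 mitosis genes in every library (points), with mean ± SD of 3 libraries (bars), by bone and mouse; the vertical axes do not start at 0. In every panel the femur of mouse 7 has the lowest mean and the femur of mouse 19 the highest, as in the sums over all 43 genes (7877 and 9497 CPM).

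Over both mice, no member passed the test of MSC-treated tibia over untreated femur. With edgeR's quasi-likelihood test, the mouse as a term and a Benjamini-Hochberg adjusted p under 0.05 as the threshold, 0 of 43 members were called higher, where 3.51% of all 11806 genes were called higher. Likewise 0 were called lower, against 3.69% of all genes. The lowest adjusted p among the members was 0.100 (Cdk1). At an unadjusted p under 0.05 there were 4 members, all higher in tibia: Cdk1, the kinase that drives entry into mitosis, Birc5 (survivin), Cenpa, the histone of centromeres, and Ndc80, a microtubule-binding kinetochore protein. DESeq2 called 0 members as well. Log2 fold changes over both mice ran from -0.05 to 0.12 with a median of 0.03, and their standard errors from 0.037 to 0.097. With counts summed per mouse and bone, so that the animal is the unit, 0 members were called in either direction and 0 had an unadjusted p under 0.05, where 0.551% of all genes were called. Without tibia library 3 of mouse 19, 1 member, Ccnb2, was called higher (adjusted p = 0.0486, against 0.268 with all libraries).

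Within mouse 7, 20 of the 43 members were called higher in tibia, where 4.37% of all genes were called higher, and 0 were called lower, where 5.36% of all genes were. Within mouse 19, 0 members were called higher, where 2.96% of all genes were, and 9 were called lower, where 2.21% of all genes were. The median log2 fold change of the members was 0.15 in mouse 7 and -0.10 in mouse 19, and that of all genes tested was -0.01 and 0.00. By point estimate 40 members were positive in mouse 7 and negative in mouse 19, as were 20.4% of all genes. Every tibia library lay above every femur library of mouse 7 for 33 members, against 12.2% of all genes. Every tibia library lay below every femur library of mouse 19 for 17 members, against 10.3% of all genes. In the direction not called, 0 members had an unadjusted p under 0.05 in either mouse, and DESeq2 called 0 there too. These contrasts share no library, and across the 43 members their log2 fold changes had a Pearson r of -0.02, against 0.30 across all genes. Genes are not independent replicates, so this is given as a description.

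The counts called within a mouse moved with single libraries. In mouse 7, 10 members were called without tibia library 3, and 11 without femur library 1 or without femur library 2. In mouse 19, 3 members were called without tibia library 1, 5 without tibia library 2 or femur library 1 or 2, and 6 without femur library 3. Of the 20 called in mouse 7, 8 stayed called whichever of the 12 libraries was left out: Ccna2, Ccnb1, Ccnb2, Cdk1, Cdca8, Cenpa, Kif11 and Smc2. Of the 9 called in mouse 19, 0 stayed called in every such fit. The sign of each called change stayed the same in all of them.

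**Figure D2:**
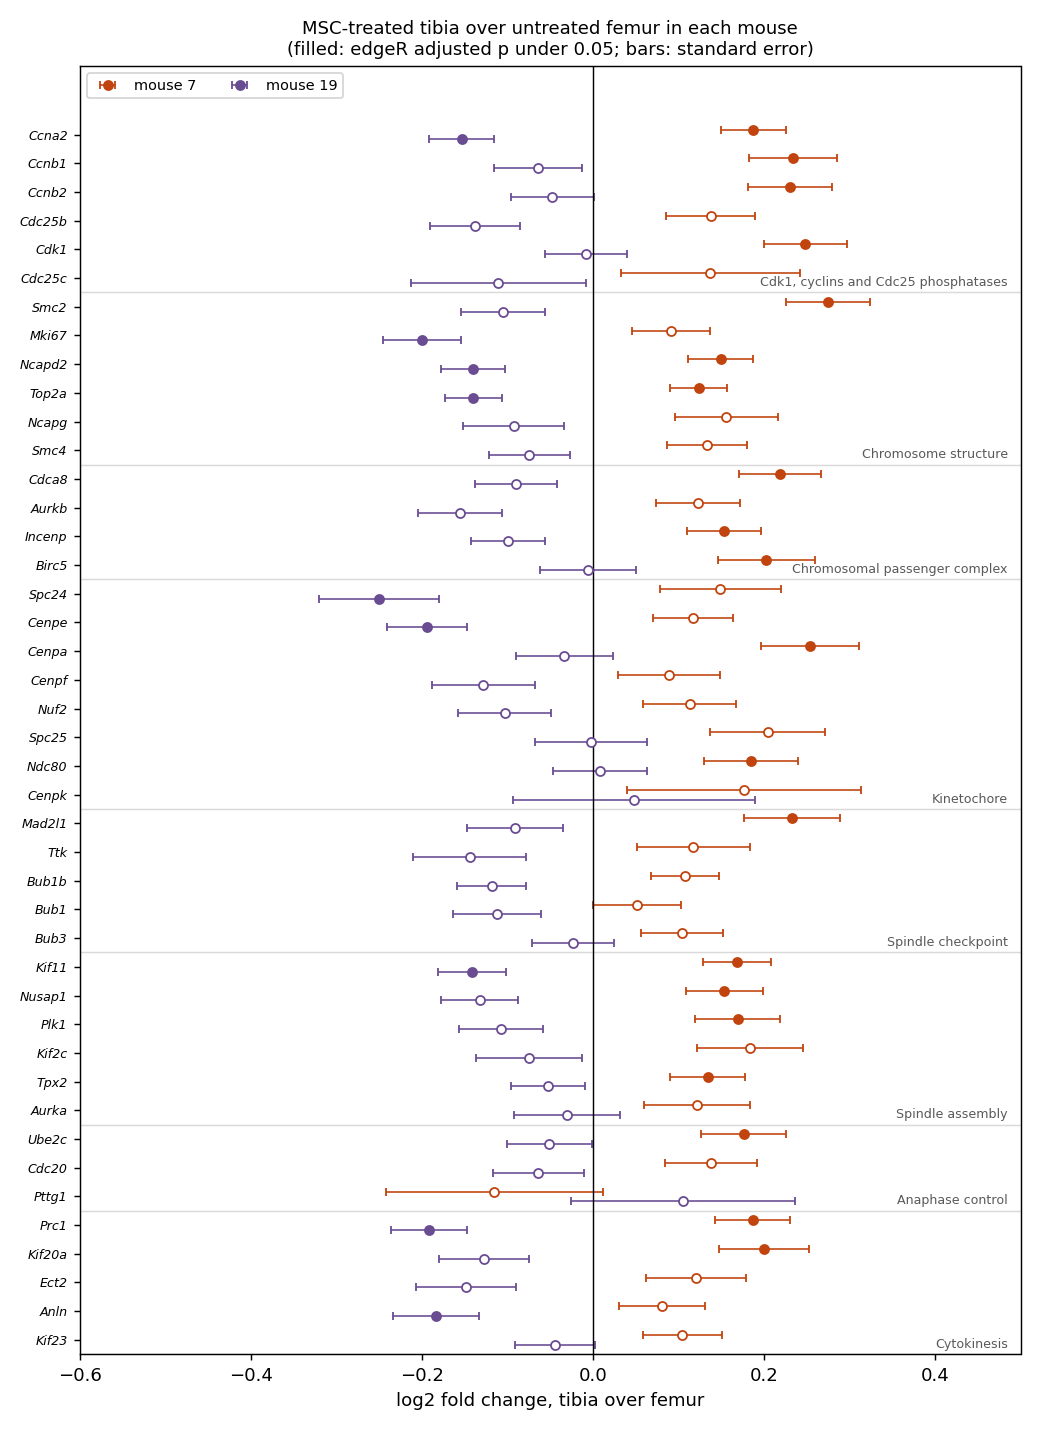
Log2 fold change of MSC-treated tibia over untreated femur for each of the 43 mitosis genes in mouse 7 (orange) and mouse 19 (purple), grouped by role; bars are standard errors and filled points passed an adjusted p under 0.05. Orange points lie to the right of 0 for all but Pttg1 and purple points to the left for all but Pttg1, Cenpk and Ndc80.

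The difference between the mice was tested as a contrast of its own on the same libraries, the log2 fold change of tibia over femur in mouse 7 minus that in mouse 19. It was called higher in mouse 7 for 23 members, where 1.85% of all genes were called higher, and lower for 0 members, where 2.89% of all genes were called lower (edgeR's quasi-likelihood test, Benjamini-Hochberg adjusted). No member was lower at an unadjusted p under 0.05, and DESeq2 called 26 higher and 0 lower. The median difference of the members was 0.26, and that of all genes was -0.01. Of the 23, 20 were also called within a mouse, and 3 were called in neither: Cdc25b, Aurkb and Bub1b. Conversely, Birc5, Ube2c, Ndc80 and Tpx2 were called in mouse 7 without a called difference. A total of 5 members were called higher in mouse 7 and lower in mouse 19: Top2a, Ncapd2, Ccna2, Kif11 and Prc1. With 1 library left out at a time, between 17 and 26 members were called for the difference, and 12 of the 23 were called in every such fit. Those 12 were Ccna2, Cdca8, Cenpe, Kif11, Kif20a, Mad2l1, Mki67, Ncapd2, Nusap1, Prc1, Smc2 and Top2a.

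Comparison of the mice within a bone, which reuses the same libraries, set the femurs apart. In untreated femurs, 40 of 43 members were called lower in mouse 7 than in mouse 19, where 14.1% of all genes were called lower, and 0 were called higher, where 14.3% of all genes were. Their median log2 fold change, mouse 7 over mouse 19, was -0.31. In MSC-treated tibias, 1 member, Cenpe, was called higher in mouse 7, where 6.77% of all genes were called higher. There 3 members, Ncapd2, Cdc20 and Spc25, were called lower, where 7.22% of all genes were, and the median over the 43 was -0.03. Cenpe lost that call without any 1 tibia library of mouse 7, or without tibia library 1 or 2 of mouse 19 (adjusted p up to 0.201), and 4 members were called higher without tibia library 3 of mouse 19. Cdc20 lost its call without tibia library 1 or 2 of either mouse (adjusted p up to 0.141), and Spc25 lost it in 10 of the 12 fits with a library left out (adjusted p up to 0.273), all but those without tibia library 1 and without femur library 2 of mouse 7. The femur of mouse 19 had the highest group mean for 40 members, and the femur of mouse 7 the lowest for 38. The 3 members not called between femurs were Pttg1, which encodes securin, Cenpf and Cenpk, both kinetochore proteins.

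**Figure D3:**
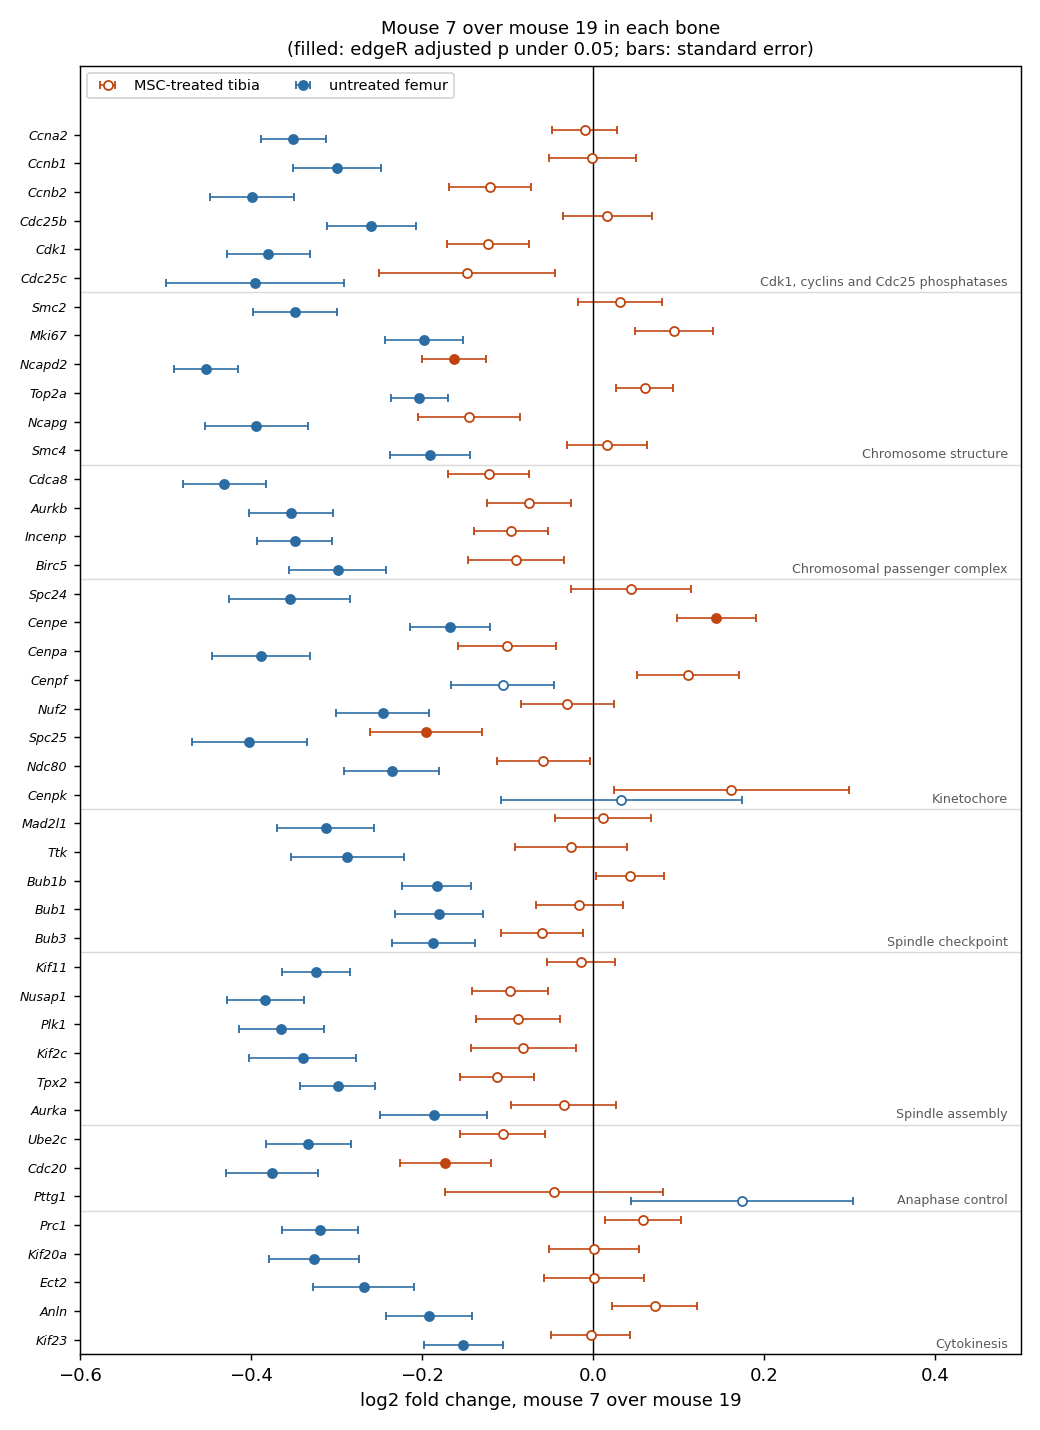
Log2 fold change of mouse 7 over mouse 19 for each of the 43 mitosis genes in MSC-treated tibias (orange) and untreated femurs (blue), grouped by role; bars are standard errors and filled points passed an adjusted p under 0.05. Blue points centre on a median of -0.31 and 40 are filled, while orange points scatter around a median of -0.03 and 4 are filled.

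Among the Cdk1 group (Cdk1, 3 cyclins and 2 activating phosphatases), 4 of 6 members were called higher in tibia of mouse 7 and 1 was called lower in tibia of mouse 19. Ccna2 encodes cyclin A2, which acts in S phase and at entry into mitosis. It had 298, 292 and 301 CPM in tibia and 263, 251 and 267 CPM in femur of mouse 7. In mouse 19, Ccna2 had 293, 303 and 300.4 CPM in tibia and 339, 326 and 332 CPM in femur. The groups did not overlap in either mouse, tibia lying above femur in mouse 7 and below it in mouse 19. Its log2 fold change was 0.19 ± 0.038 (SE) in mouse 7 (edgeR adjusted p = 0.00157) and -0.15 ± 0.038 in mouse 19 (adjusted p = 0.0125), and the difference of 0.34 ± 0.054 was called (adjusted p = 0.000114). The call in mouse 19 failed without library 1 of either bone of that mouse (adjusted p up to 0.0901), and 12.5% of the Ccna2 exons overlap Exosc9 on the other strand.

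Ccnb2 encodes cyclin B2, a partner of Cdk1. Libraries of mouse 7 held 173, 175 and 183 CPM in tibia and 151, 153 and 148 CPM in femur. Those of mouse 19 held 193, 206 and 178 CPM in tibia and 197, 204 and 196 CPM in femur. Tibia lay above femur in mouse 7, and the bones overlapped in mouse 19. Ccnb2 was called in mouse 7 (log2 fold change 0.23 ± 0.049, edgeR adjusted p = 0.00237) and for the difference between mice (0.28 ± 0.069, adjusted p = 0.0130), which was not called without tibia library 3 of mouse 7 (adjusted p = 0.0518). Cdk1 itself and Ccnb1, which encodes cyclin B1, were called in mouse 7 with log2 fold changes of 0.25 and 0.23. In mouse 19 their values were -0.01 and -0.06 and were not called. Their differences of 0.26 and 0.30 were called (edgeR adjusted p = 0.0228 and 0.0110), that of Cdk1 not without library 2 of either bone of mouse 7, nor when mouse 19 lacked its tibia library 1 or its femur library 2 (adjusted p up to 0.0782), and that of Ccnb1 not without femur library 1 of mouse 7 (0.0594). Cdc25b and Cdc25c encode phosphatases that switch Cdk1 on. Cdc25b was called for the difference only (0.28 ± 0.074, edgeR adjusted p = 0.0239), a call that needed tibia library 3 and femur library 1 of mouse 7 and library 1 of each bone of mouse 19 (adjusted p up to 0.100). Cdc25c was not called in a mouse or for the difference.

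Of the 6 chromosome structure members, 3 were called higher in tibia of mouse 7, 3 were called lower in tibia of mouse 19, and 4 for the difference. Per kilobase of exon and averaged over all libraries, Mki67 reached 152 CPM per kb, Ccnb2 117 and Top2a 102, and Cenpk stood lowest at 2.08. Mki67 encodes Ki-67, which coats mitotic chromosomes and is the usual stain for cycling cells. It had 1558, 1493 and 1581 CPM in tibia and 1393, 1516 and 1439 CPM in femur of mouse 7, and these overlapped. In mouse 19, Mki67 had 1442, 1312 and 1586 CPM in tibia and 1674, 1611 and 1702 CPM in femur, with all tibia libraries lower. Its log2 fold change was 0.09 ± 0.046 in mouse 7 (not called) and -0.20 ± 0.046 in mouse 19 (edgeR adjusted p = 0.00665, and 0.0620 without tibia library 2 of mouse 19), and the difference of 0.29 ± 0.065 was called (adjusted p = 0.00526).

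Top2a encodes topoisomerase II alpha, which untangles sister chromatids. Its libraries had 940.4, 926 and 934 CPM in tibia and 832, 859 and 879 CPM in femur of mouse 7. They had 873, 895 and 917 CPM in tibia and 986, 979 and 995 CPM in femur of mouse 19. No value overlapped between bones, and the order turned round between the mice. Top2a was called in both mice, with log2 fold changes of 0.12 ± 0.034 in mouse 7 (edgeR adjusted p = 0.0160) and -0.14 ± 0.034 in mouse 19 (adjusted p = 0.00999). The call in mouse 7 needed its tibia library 3 and its femur library 1 (adjusted p up to 0.115 without either), and the call in mouse 19 its tibia library 1 (0.0862). The difference of 0.26 ± 0.047 was called in every fit with 1 library left out (adjusted p = 0.000591 with all libraries).

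Smc2, Smc4, Ncapd2 and Ncapg encode subunits of condensin, which compacts chromosomes. Smc2 had 244, 218 and 241 CPM in tibia and 194, 203 and 184 CPM in femur of mouse 7. In mouse 19 it had 219, 224 and 245 CPM in tibia and 248, 245 and 247 CPM in femur. Tibia was higher without overlap in mouse 7, and the bones met at 245 CPM in mouse 19. The change in mouse 7 was 0.27 ± 0.049 (edgeR adjusted p = 0.000395), the highest of the 43 members there, and the difference between mice was 0.38 ± 0.070 (adjusted p = 0.000741). Both calls held in every fit with 1 library left out. Ncapd2 was called in mouse 7 (0.15) and in mouse 19 (-0.14), both calls being lost without 1 of 3 libraries of the same mouse: tibia library 3, femur library 1 or 2 in mouse 7 (adjusted p up to 0.0733), and tibia library 1, femur library 1 or 2 in mouse 19 (up to 0.111). Smc4 and Ncapg had log2 fold changes of 0.13 and 0.16 in mouse 7 and -0.07 and -0.09 in mouse 19, and were not called there or for the difference.

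The chromosomal passenger complex, made of the kinase Aurora B (Aurkb), its activator Incenp, survivin (Birc5) and borealin (Cdca8), corrects wrong kinetochore attachments. Of these 4 members, 3 were called higher in tibia of mouse 7 and 0 were called lower in tibia of mouse 19. Incenp had 234, 248 and 262 CPM in tibia and 220.1, 223 and 226 CPM in femur of mouse 7. It had 262, 261 and 272 CPM in tibia and 294, 271 and 287 CPM in femur of mouse 19. Tibia libraries were higher in mouse 7 and the bones overlapped in mouse 19. Incenp was called in mouse 7 (log2 fold change 0.15 ± 0.044, edgeR adjusted p = 0.0217) but not without tibia library 2 or 3 or femur library 1 or 2 of mouse 7 (adjusted p up to 0.184). Its difference between mice was 0.25 ± 0.061 (adjusted p = 0.0110, and 0.0597 without tibia library 3 of mouse 7).

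Aurkb had 131, 142 and 146 CPM in tibia and 129, 127 and 129 CPM in femur of mouse 7. It had 147, 152 and 143 CPM in tibia and 169, 165 and 158 CPM in femur of mouse 19. The bones did not overlap in either mouse, but neither change was called (0.12 and -0.16, edgeR adjusted p = 0.122 and 0.0611). The difference of 0.28 ± 0.069 was called (adjusted p = 0.0144), except without tibia library 3 of mouse 7 (0.0644). Cdca8 was called in mouse 7 (0.22 ± 0.048, adjusted p = 0.00340) and for the difference (0.31 ± 0.068, adjusted p = 0.00492), in every fit with 1 library left out. Birc5 was called in mouse 7 only (0.20, adjusted p = 0.0201), a call lost without tibia library 3 or femur library 1 or 2 of mouse 7 (up to 0.165).

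Of the 8 kinetochore members, 2 were called higher in tibia of mouse 7, 2 others lower in tibia of mouse 19, and 3 for the difference. Cenpe encodes a kinesin that carries chromosomes to the spindle equator. Its values were 207, 199 and 199 CPM in tibia and 186, 191 and 181 CPM in femur of mouse 7. In mouse 19 they were 185, 169 and 194 CPM in tibia and 206, 212 and 209 CPM in femur. The bones were apart in both mice, in opposite order. Cenpe was called lower in tibia of mouse 19 (-0.19 ± 0.047, edgeR adjusted p = 0.0105), though not without library 2 of either bone of mouse 19 (adjusted p up to 0.0913), and its difference of 0.31 ± 0.066 was called (adjusted p = 0.00343).

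Spc24, a subunit of the Ndc80 complex that grips microtubules, had the highest difference between the mice of all 43 members. It had 48.1, 47.7 and 45.1 CPM in tibia and 40.6, 42.2 and 44.2 CPM in femur of mouse 7. It had 48.9, 45.4 and 42.1 CPM in tibia and 52.7, 51.7 and 58.0 CPM in femur of mouse 19. The bones were again apart in both mice. The log2 fold change was 0.15 ± 0.071 in mouse 7 (edgeR adjusted p = 0.205) and -0.25 ± 0.070 in mouse 19 (adjusted p = 0.0315), the second being lost without tibia library 2 or 3 or femur library 1 or 3 of mouse 19 (up to 0.190). The difference of 0.40 ± 0.10 was called (adjusted p = 0.0142, and 0.0612 when femur library 3 of mouse 19 was left out).

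Cenpf had 157, 159 and 171 CPM in tibia and 148, 157 and 152 CPM in femur of mouse 7. It had 148, 134 and 169.5 CPM in tibia and 159, 165 and 168 CPM in femur of mouse 19. The bones overlapped in both mice and no within-mouse change was called, but without tibia library 3 of mouse 19, which held the highest tibia value, the difference was called (0.32, edgeR adjusted p = 0.00704, against 0.22 and 0.171 with all libraries). Cenpk, a subunit of the constitutive centromere complex, had 11.9, 11.8 and 12.05 CPM in tibia and 11.7, 10.5 and 9.47 CPM in femur of mouse 7. It had 10.7, 11.2 and 10.1 CPM in tibia and 8.74, 12.1 and 9.91 CPM in femur of mouse 19. The tibia lay above the femur by a narrow gap in mouse 7 and the bones overlapped in mouse 19. Its difference of 0.13 ± 0.20 was not called and turned to -0.01 without femur library 2 of mouse 19. Cenpa and Ndc80 were called in mouse 7 (0.25 and 0.18), the second not without any 1 of the 5 libraries of mouse 7 other than tibia library 2 (edgeR adjusted p up to 0.109). The Cenpa difference of 0.29 was called (adjusted p = 0.0341) but lost with 7 of the 12 libraries left out in turn, 3 of mouse 7 (tibia library 2, femur libraries 2 and 3) and 4 of mouse 19 (libraries 1 of both bones, tibia library 3 and femur library 2), with adjusted p up to 0.138. Nuf2 and Spc25, which belong to the Ndc80 complex too, were not called in a mouse, with log2 fold changes of 0.11 and 0.20 in mouse 7 and standard errors of 0.054 and 0.067.

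Of the 5 spindle checkpoint members, 1 was called in mouse 7, 0 in mouse 19 and 2 for the difference. Bub1b encodes BubR1, part of the complex that holds back the anaphase-promoting complex. It had 241, 247 and 259 CPM in tibia and 233, 225 and 235 CPM in femur of mouse 7. It had 239, 239.8 and 246 CPM in tibia and 264, 263 and 261 CPM in femur of mouse 19. The bones were apart in both mice by a narrow gap and neither change was called (0.11 and -0.12, edgeR adjusted p = 0.0929 and 0.0869). The difference of 0.23 ± 0.057 was called (adjusted p = 0.0151), except when tibia library 3 (0.0705) or femur library 2 (0.0503) of mouse 7 was left out.

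Bub3, a partner of BubR1, had 157, 153 and 166 CPM in tibia and 139.5, 149 and 154 CPM in femur of mouse 7. It had 162, 166 and 167 CPM in tibia and 167, 172 and 165 CPM in femur of mouse 19. The bones overlapped in both mice, and the difference of 0.13 ± 0.068 was not called (edgeR adjusted p = 0.386). Mad2l1, which encodes the checkpoint protein Mad2, was called in mouse 7 (0.23 ± 0.056, adjusted p = 0.00709, and 0.0508 when femur library 2 of mouse 7 was left out) and for the difference (0.32 ± 0.080, adjusted p = 0.0125). Bub1 and Ttk, both checkpoint kinases, had 0.05 and 0.12 in mouse 7 and -0.11 and -0.14 in mouse 19 on the log2 scale and were not called.

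Of the 6 spindle assembly members, 4 were called higher in tibia of mouse 7, 1 was called lower in tibia of mouse 19, and 3 were called for the difference. Kif11 encodes the kinesin Eg5, which pushes the spindle poles apart. Libraries of mouse 7 had 354, 330.2 and 353 CPM in tibia and 306, 301 and 316 CPM in femur. Those of mouse 19 had 341, 345 and 361 CPM in tibia and 396, 374 and 386 CPM in femur. No values overlapped, with opposite order in the mice. Kif11 was called in mouse 7 (0.17 ± 0.040, edgeR adjusted p = 0.00554) and for the difference (0.31 ± 0.056, adjusted p = 0.000618) in every fit with 1 library left out. In mouse 19 it was called lower (-0.14 ± 0.040, adjusted p = 0.0311), a call lost without tibia library 1 or 2 or femur library 1 or 3 of mouse 19 (up to 0.156).

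Tpx2, which activates Aurora A on the spindle, had 218, 214 and 220.2 CPM in tibia and 191, 198 and 205 CPM in femur of mouse 7. It had 229, 242 and 234 CPM in tibia and 231, 244 and 254 CPM in femur of mouse 19. The bones were apart in mouse 7 only. Its change in mouse 7 was at the threshold (0.13 ± 0.044, edgeR adjusted p = 0.0491) and was lost with 7 of 12 libraries left out in turn, 5 of mouse 7 (all but femur library 3) and 2 of mouse 19 (tibia library 1, femur library 2), with adjusted p up to 0.220. The difference of 0.19 was not called with all libraries (adjusted p = 0.0866), but was when tibia library 2 (0.0448) or femur library 1 (0.0392) of mouse 19 was left out.

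Aurka, the Aurora A kinase gene, had 82.4, 84.2 and 95.2 CPM in tibia and 79.7, 76.5 and 84.6 CPM in femur of mouse 7. It had 91.2, 92.6 and 84.3 CPM in tibia and 90.2, 94.95 and 88.6 CPM in femur of mouse 19. The bones overlapped in both mice, and no change was called. Plk1, a kinase of spindle poles and kinetochores, and Nusap1, a microtubule bundler, were called in mouse 7 (0.17 and 0.15, edgeR adjusted p = 0.0260 and 0.0272) and for the difference (0.28 and 0.29). The Plk1 call in mouse 7 was lost without tibia library 2 or 3 or femur library 1 or 2 (up to 0.121), that of Nusap1 without any library of mouse 7 but tibia library 2 (up to 0.138), and the Plk1 difference without femur library 1 of mouse 19 (0.0532). Kif2c, a kinesin that takes microtubules apart, had 0.18 in mouse 7 and -0.07 in mouse 19 and was not called.

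Of the 3 anaphase control members, 1 was called higher in tibia of mouse 7, and 0 were called in mouse 19 or for the difference, where 2 had an unadjusted p under 0.05. Ube2c encodes the ubiquitin-conjugating enzyme of the anaphase-promoting complex. It had 173, 165 and 178 CPM in tibia and 158, 141 and 159 CPM in femur of mouse 7. It had 182, 192 and 182 CPM in tibia and 195, 186 and 195 CPM in femur of mouse 19. Tibia was higher in mouse 7 without overlap (0.18 ± 0.050, edgeR adjusted p = 0.0214), a call lost without tibia library 1 or 3 or femur library 2 of mouse 7 (up to 0.189). The difference of 0.23 ± 0.070 was not called (adjusted p = 0.0603), but was in 7 of the alternatives, among them those that left out tibia library 2 (0.0487) or femur library 3 (0.0369) of mouse 7 or tibia library 2 of mouse 19 (0.0296). For Ube2c, 22.8% of the exon length overlaps Tnnc2 on the other strand.

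Cdc20, which activates the anaphase-promoting complex, had 103, 109 and 114 CPM in tibia and 101, 93.3 and 102 CPM in femur of mouse 7. It had 124, 125 and 118 CPM in tibia and 124, 132 and 128 CPM in femur of mouse 19. The lowest tibia library lay just above the highest femur library in mouse 7, the bones overlapped in mouse 19, and no within-mouse change or difference was called. Pttg1 encodes securin, the inhibitor of separase. It had 15.5, 11.4 and 13.9 CPM in tibia and 15.8, 13.5 and 14.9 CPM in femur of mouse 7. It had 13.9, 14.3 and 13.8 CPM in tibia and 14.6, 13.2 and 11.5 CPM in femur of mouse 19. Pttg1 was the 1 member with a negative difference (-0.22 ± 0.18), which was not called (edgeR adjusted p = 0.642).

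Of the 5 cytokinesis members, 2 were called higher in tibia of mouse 7, 2 were called lower in tibia of mouse 19, and 3 for the difference. Prc1 encodes the bundler of the central spindle. It had 208, 203 and 201 CPM in tibia and 184, 171 and 182 CPM in femur of mouse 7. It had 192, 196 and 199.6 CPM in tibia and 226, 231 and 214 CPM in femur of mouse 19. The bones were apart in both mice, in opposite order. The log2 fold change was 0.19 ± 0.044 in mouse 7 (edgeR adjusted p = 0.00589, and 0.0552 when its femur library 2 was left out) and -0.19 ± 0.044 in mouse 19 (adjusted p = 0.00729, and up to 0.0685 when its tibia library 1 or its femur library 2 was left out). The difference of 0.38 ± 0.063 was called in every fit with 1 library left out (adjusted p = 0.000200 with all libraries), and 11.1% of the Prc1 exons overlap Rccd1 on the other strand.

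Anln encodes anillin, the scaffold of the contractile ring. It had 184, 187 and 186 CPM in tibia and 172, 174 and 181 CPM in femur of mouse 7. It had 171, 167 and 193 CPM in tibia and 191, 208 and 202 CPM in femur of mouse 19. Tibia was higher in mouse 7 without overlap, and in mouse 19 the bones overlapped at tibia library 3. Anln was called lower in mouse 19 (-0.18 ± 0.050, edgeR adjusted p = 0.0263), which was lost without tibia library 1 or 2 or femur library 2 or 3 of mouse 19 (up to 0.153). Its difference of 0.26 ± 0.071 (adjusted p = 0.0241) was lost in 8 of the 12 fits with 1 library left out (up to 0.0944), the calls remaining when tibia library 1 or femur library 3 of mouse 7 was left out, or tibia library 3 or femur library 1 of mouse 19.

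Kif20a, a kinesin of the central spindle, had 148, 148 and 158 CPM in tibia and 126, 129 and 139.8 CPM in femur of mouse 7. It had 142, 157 and 155 CPM in tibia and 168, 169 and 158 CPM in femur of mouse 19. The bones were apart in both mice, and the change was called in mouse 7 (0.20 ± 0.053, edgeR adjusted p = 0.0130, and up to 0.0990 without tibia library 3 or femur library 1 or 2 of mouse 7) and for the difference (0.33 ± 0.074, adjusted p = 0.00639). For Kif20a, 29.3% of the exon length overlaps Cdc23 on the other strand, and the strand setting of the counting is not known here, so reads from the overlap cannot be assigned to 1 of the 2 genes. Kif23, a kinesin that brings RhoA activators to the midzone, had 183, 183 and 191 CPM in tibia and 165, 179 and 173 CPM in femur of mouse 7. It had 176, 196 and 187 CPM in tibia and 191, 191 and 193 CPM in femur of mouse 19, where the bones overlapped. Neither Kif23 nor Ect2, the exchange factor that activates RhoA at the midzone, was called in a mouse or for the difference.

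Other genes of the cell cycle were counted from 3 lists. Of 109 further mitosis genes, 32 were called higher in tibia of mouse 7 and 0 lower, 0 higher and 11 lower in tibia of mouse 19, and 35 for the difference, all higher in mouse 7. Between femurs, 77 were called lower in mouse 7 and 0 higher, and between tibias 2 lower and 0 higher. Of all genes, 4.37% were called higher in tibia of mouse 7, 2.21% lower in tibia of mouse 19 and 1.85% higher for the difference. Between femurs 14.1% of all genes were called lower and 14.3% higher, and between tibias 7.22% lower and 6.77% higher. The 2 of 109 lower between tibias is thus below the share of all genes. Mybl2, which encodes the B-Myb factor of late cell cycle promoters, had the highest called difference of this list (0.58 ± 0.12, edgeR adjusted p = 0.00159). It averaged 35.9 ± 1.37 CPM in tibia and 24.8 ± 2.37 CPM in femur of mouse 7, and 36.7 ± 2.57 CPM in tibia and 37.9 ± 1.06 CPM in femur of mouse 19 (SD, n = 3 each). Pkmyt1, a kinase that restrains Cdk1, and Nek2, a centrosome kinase, followed with 0.51 and 0.46. The lowest called differences were those of Hmgb2 (0.23), Rad21 (0.22) and Anapc5 (0.22), a chromatin protein, a cohesin subunit and a subunit of the anaphase-promoting complex.

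Of 38 genes of DNA replication, 28 were called higher in tibia of mouse 7 and 0 lower, 0 were called in either direction in mouse 19, where 5 had an unadjusted p under 0.05 (all lower), and 18 were called for the difference, all higher in mouse 7. Between femurs, 36 of 38 were called lower in mouse 7, where 14.1% of all genes were. Of all genes, 4.37% were called higher in tibia of mouse 7 and 1.85% higher for the difference. In tibia of mouse 19, 2.96% of all genes were called higher and 2.21% lower. Chaf1b (0.54), Tyms (0.54) and Chaf1a (0.50), which serve chromatin assembly and thymidylate synthesis, had the highest called differences. Pcna (0.25), the replication clamp, Mcm4 (0.25), of the replicative helicase, and Rrm1 (0.24), of ribonucleotide reductase, had the lowest. Over both mice, 4 of the 38 replication genes and 3 of the 109 other mitosis genes were called higher and 0 lower, where 3.51% of all genes were called higher. The share of the other mitosis genes is thus no higher than that of all genes. Both groups are named here after their values were seen. The replication genes were Rrm2 (0.18), the other subunit of ribonucleotide reductase, Gmnn (0.20), which encodes the licensing inhibitor geminin, and Gins4 (0.21) and Gins2 (0.39) of the helicase. The mitosis genes were Zwint (0.22), a kinetochore protein, Cenpb (0.16), which binds centromeric DNA, and Anapc4 (0.15), of the anaphase-promoting complex. With counts summed per animal none of these 7 was called, with adjusted p between 0.289 and 0.458. Among 26 genes of the G1 phase and cell cycle exit, 1 was called for the difference, E2f2 (0.25), a transcription factor of S phase entry. Of all genes, 1.85% were called higher and 2.89% lower for the difference, and 1 of 26 is near these shares. In tibia of mouse 7, 1 of the 26 was called higher and 1 lower, where 4.37% and 5.36% of all genes were. Within mouse 19, 1 was called higher and 4 lower in tibia, where 2.96% and 2.21% of all genes were. Between femurs, 4 were called higher and 8 lower in mouse 7, where 14.3% and 14.1% of all genes were. Between tibias it was 0 higher and 3 lower, where 6.77% and 7.22% of all genes were. Over both mice, Cdkn1a and Ccne1 were called higher and Ccnd2, which encodes cyclin D2, lower (-0.49 ± 0.086, edgeR adjusted p = 0.000771, and 0.0497 on sums per animal). The shares of all genes over both mice were 3.51% higher and 3.69% lower. On sums per animal Cdkn1a and Ccne1 were not called, with adjusted p of 0.230 and 0.424.

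Markers of other marrow cells were summed per library beside these results. For 13 genes of granulocyte precursors, of which Calr, Srgn, Clec12a and Igsf6 are also expressed by macrophages, the sum ran from 3118 to 3382 CPM in tibia and from 2741 to 2770 CPM in femur of mouse 7. In mouse 19 it ran from 3625 to 4070 CPM in tibia and from 3124 to 3488 CPM in femur. This sum was higher in tibia in both mice, and the mitosis sum in mouse 7 only. Of the 13, 6 were called higher and 1 lower in tibia of mouse 7, where 4.37% and 5.36% of all genes were. In tibia of mouse 19, 5 were called higher and 0 lower, where 2.96% and 2.21% of all genes were. These 5 were Srgn, Calr, Ms4a3, Elane and Prtn3, and Mpo and Ctsg were among those not called there. For the difference, 3 were called higher in mouse 7, as the 23 members were: Mpo (0.61, edgeR adjusted p = 0.00183), Prtn3 (0.39, adjusted p = 0.00263) and Ctsg (0.77, adjusted p = 0.000342), which encode proteins of primary granules. Another 2 were called lower, Srgn and Igsf6, where 1.85% of all genes were called higher and 2.89% lower. Marker genes named here were picked after their values were seen. Between femurs, 10 of the 13 were called lower and 3 higher in mouse 7, where 14.1% and 14.3% of all genes were. The 11 neutrophil granule genes summed to 23109 to 24733 CPM in tibia and 23423 to 25292 CPM in femur of mouse 7, and to 35335 to 37938 CPM in tibia and 33379 to 37031 CPM in femur of mouse 19. The sums of the bones overlapped in each mouse, and both bones lay lower in mouse 7. By bone, 1 gene of this list was called higher and 4 lower in tibia of mouse 7. The shares of all genes were 4.37% and 5.36%. In tibia of mouse 19, 5 genes were called higher and 2 lower, where 2.96% and 2.21% of all genes were. In both mice, Mmp9, a matrix protease, and Chi3l3, a chitinase-like protein, were called lower in tibia. S100a8 was called higher in tibia in both, with log2 fold changes of 0.17 in mouse 7 and 0.22 in mouse 19. All 11 were called lower in mouse 7 between femurs and between tibias, where 14.1% and 7.22% of all genes were.

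Between femurs, the erythroid, granulocyte precursor, neutrophil granule and stem and progenitor sums were lower in mouse 7, as the mitosis sum was. Mouse 7 over mouse 19 the ratio of mean sums between femurs was 0.539, 0.835, 0.702 and 0.730 for these lists in turn, and 0.829 for the members. Between tibias it was 0.649, 0.853, 0.649 and 0.810 for the same lists, but 0.997 for the members. In the other marker lists the femur ratio was 0.851 (megakaryocytes, mast cells and basophils), 0.914 (dendritic cells) and 0.995 (T and NK cells). It was 1.13 for B cells, 1.16 for stroma and 1.17 for macrophage genes. The 16 erythroid genes summed to 73.3 to 84.0 CPM in tibia and 74.0 to 96.8 CPM in femur of mouse 7, and to 108 to 133 CPM in tibia and 142 to 163 CPM in femur of mouse 19. Of these sums Tfrc, the transferrin receptor gene, held 31.9 to 54.5 CPM. The globin rows Hba-a1, Hba-a2, Hbb-b1 and Hbb-b2 were listed at 0 in all 12 libraries. Beta-s, a further beta-globin row, held 15.5 to 47.2 CPM. It was called lower in tibia of mouse 7 (-0.72, edgeR adjusted p = 0.000588) and of mouse 19 (-0.63, adjusted p = 0.00161). Of 12 erythroid genes tested, 1 was called higher (Tfrc, 0.44) and 2 lower (Beta-s and Slc4a1) in tibia of mouse 7. The shares of all genes were 4.37% and 5.36%. In mouse 19, 0 were called higher and 3 lower (Beta-s, Slc4a1 and Car2), where 2.96% and 2.21% of all genes were. Stem and progenitor genes (10, with Mecom at 0 in 8 libraries) summed to 89.4 to 94.3 CPM in tibia and 82.8 to 91.3 CPM in femur of mouse 7, and to 109 to 120 CPM in tibia and 112 to 124 CPM in femur of mouse 19. Of these 10, 8 were tested, and their differences between the mice were positive for 4 and negative for 4 (median -0.06). Only Myb, a transcription factor of progenitors, was called for the difference, higher in mouse 7 (0.47, edgeR adjusted p = 0.0230). For the difference, 1.85% of all genes were called higher. In tibia of mouse 7, 1 of the 8 was called higher and 1 lower, where 4.37% and 5.36% of all genes were. The sum of the 16 macrophage genes ran opposite to the mitosis sum in mouse 7, from 18605 to 19381 CPM in tibia and from 20621 to 21240 CPM in femur. In mouse 19 the bones overlapped, from 17330 to 18309 CPM in tibia and from 17544 to 18001 CPM in femur. Of these 16, 2 were called higher and 3 lower in tibia of mouse 7, where 4.37% and 5.36% of all genes were. In tibia of mouse 19, 9 were called higher and 0 lower, where 2.96% and 2.21% of all genes were. For the difference, 0 of the 16 were called higher in mouse 7 and 7 lower (median -0.29), where 1.85% and 2.89% of all genes were. Without Lyz2, a sum added after seeing the data, the other 15 ran from 5098 to 5208 CPM in tibia and from 5315 to 5450 CPM in femur of mouse 7, and from 4841 to 5009 CPM in tibia and from 4283 to 4339 CPM in femur of mouse 19. The order in mouse 7 was the same as with Lyz2, while in mouse 19 tibia was then higher with no overlap. Genes of B cells (36.8 to 69.7 CPM), T and NK cells (3.56 to 8.57), megakaryocytes, mast cells and basophils (30.5 to 52.8), stroma (14.2 to 22.8) and dendritic cells (479 to 579) made up the remaining lists, by their lowest and highest library. The part of these marker genes in the mitosis result was not tested.

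**Figure D4:**
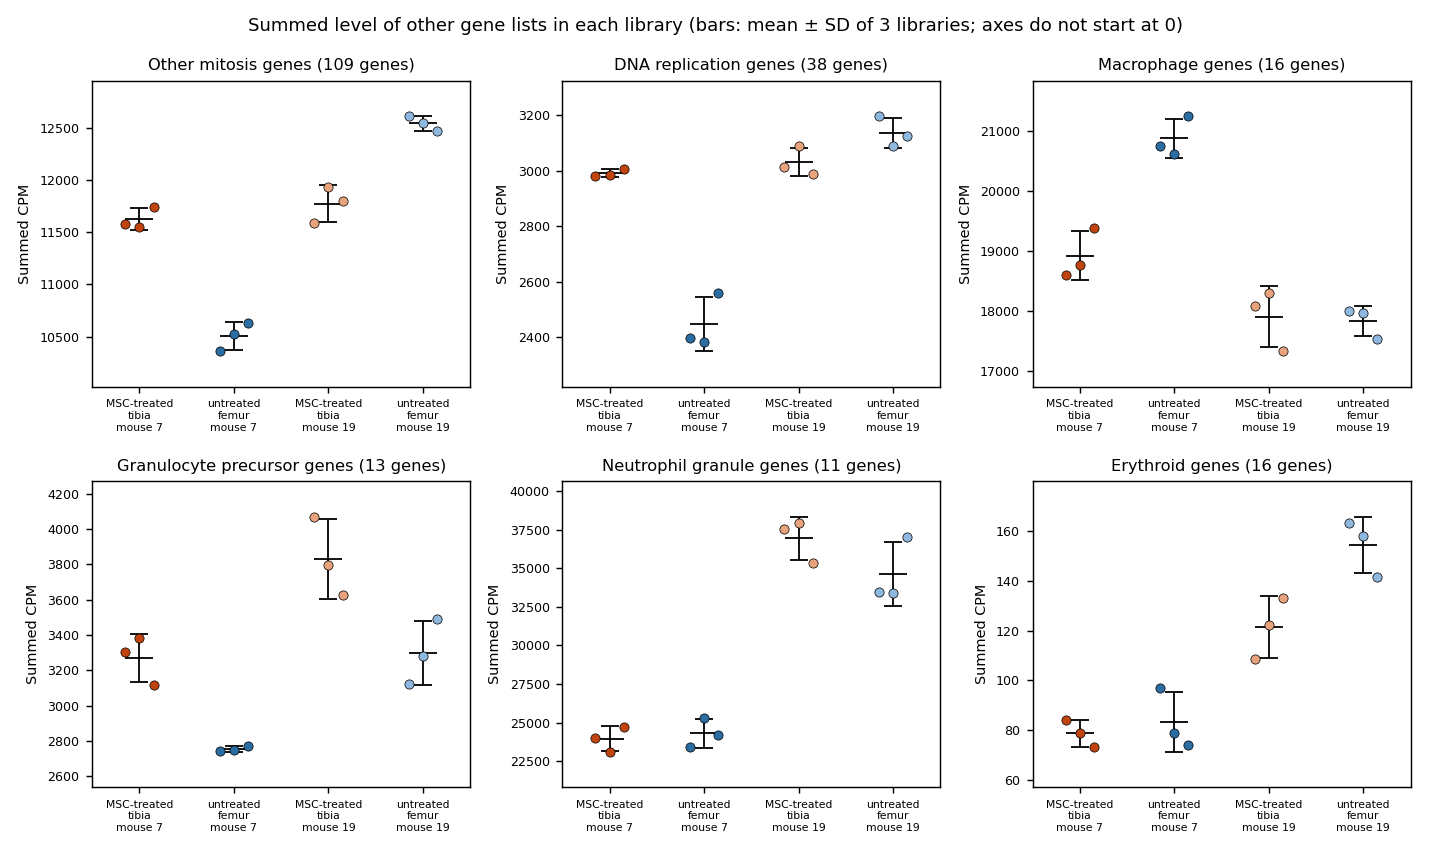
Summed CPM per library (points) of 6 further gene lists, with mean ± SD of 3 libraries (bars), by bone and mouse; the vertical axes do not start at 0. The other mitosis genes and the DNA replication genes have their lowest sums in the femur of mouse 7 (10358 to 10633 CPM and 2384 to 2559 CPM), as the 43 members do, the macrophage genes have their highest there, and the granulocyte precursor genes are higher in tibia in both mice.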

How the data were processed

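RNA-seq was done on marrow macrophages sorted from the MSC-treated tibia and the untreated femur of each of 2 mice, with 3 libraries per bone. Per the labels' protocols, RNA came from a column micro kit with DNase digestion and libraries from a Vazyme VAHTS mRNA kit. The table deposited by the authors has raw counts per gene as whole numbers, 1 column per library, and all 12 columns were matched by title. Per the submitters' processing notes, the build was mm10 and the tools bcl2fastq, HISAT2, featureCounts, Subread and DESeq2; no versions, settings or strand handling are recorded in the sources used here. Small counts were mostly even (67.3 to 71.3% of counts from 1 to 10 per library), so halved counts were an alternative.

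Counts were tested in R 4.3.3 with edgeR 4.0.16 (filterByExpr with a minimum count of 10 over the 4 groups, TMM, glmQLFit, glmQLFTest), two-sided, with Benjamini-Hochberg adjustment over 11806 genes. The test over both mice had the mouse as a term, and the other contrasts came from 1 mean per mouse and bone on all 12 libraries. The biological coefficient of variation was 6.26% and 5.51%. Standard errors are the absolute log2 fold change over the square root of F. The scripts were tested on simulated data. The 3 libraries of a group differed beyond sampling noise and were kept apart: on halved counts their chi-square per gene was 1.37 to 3.14, against 2.70 to 5.05 between the bones of 1 mouse, which overlaps it, and 5.24 to 11.1 between mice in the same bone.

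Genes with values in every library are the 2 members with the most CPM in each of 8 role groups, and the 5 highest and 5 lowest differences between the mice. From the lists of other mitosis, DNA replication and G1 genes, the 3 highest and 3 lowest called differences are named. Promoters are those of the first 6 named members, by difference, with a CHR match and not on chromosome 18. The members and all lists were chosen with earlier results of these data known. Exon lengths and overlaps come from GENCODE M21, in which exons of 14 members overlap another gene, 6 of them over 10% of their length: Kif20a, Ube2c, Ncapg, Cdc25c, Ccna2 and Prc1. Promoters come from RefSeq on GRCm38.p6. Alternatives were RLE size factors, no filter or 5 CPM in 3 libraries, halved counts, DESeq2 1.42.0, the replicate block, no mouse term, sums per animal, 1 mouse alone, and each library left out.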

Additional observations from a re-analysis of the deposited data

Results flagged for a closer look

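The change of MSC-treated tibia over untreated femur differed between mouse 7 and mouse 19 for 23 of the 43 mitosis genes, by a test of the difference itself (edgeR's quasi-likelihood test, Benjamini-Hochberg adjusted over 11806 genes). Each value below is the log2 fold change in mouse 7 minus that in mouse 19, and all are higher in mouse 7. The highest were those of Spc24 (0.40), Smc2 (0.38), Prc1 (0.38), Ccna2 (0.34), Kif20a (0.33), Mad2l1 (0.32), Cenpe (0.31), Kif11 (0.31) and Cdca8 (0.31). Next stood Ccnb1 (0.30), Mki67 (0.29), Ncapd2 (0.29), Cenpa (0.29), Nusap1 (0.29), Ccnb2 (0.28), Aurkb (0.28), Plk1 (0.28) and Cdc25b (0.28). The lowest were those of Anln (0.26), Top2a (0.26), Cdk1 (0.26), Incenp (0.25) and Bub1b (0.23).

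In the other lists the difference was called for 35 of 109 further mitosis genes, 18 of 38 DNA replication genes and 1 of 26 G1 genes, where 1.85% of all genes were called higher and 2.89% lower. Those given here were picked as the highest and lowest called differences of each list, so that they differ follows from the choice. Among further mitosis genes they are Mybl2 (0.58), Pkmyt1 (0.51), Nek2 (0.46), Hmgb2 (0.23), Rad21 (0.22) and Anapc5 (0.22). Among DNA replication genes they are Chaf1b (0.54), Tyms (0.54), Chaf1a (0.50), Pcna (0.25), Mcm4 (0.25) and Rrm1 (0.24), and among G1 genes E2f2 (0.25), the 1 called. Each mouse is 1 animal, so this difference has no replicate over animals.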

How the results depend on the processing

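Over both mice, 0 members were called higher and 0 lower under every alternative other than 1 library left out, where 0 to 1 were higher (1, Ccnb2, without tibia library 3 of mouse 19). Other settings called 19 to 23 members higher in mouse 7, 7 to 12 lower in mouse 19, 23 to 26 for the difference and 40 lower between femurs. Between tibias, 2 were higher with no filter on low counts. With 1 library left out at a time, 10 to 23 members were called higher in mouse 7, 3 to 10 lower in mouse 19 and 17 to 26 for the difference. Between tibias it was 0 to 4 higher and 1 to 3 lower. The median log2 fold change of members ran from 0.00684 to 0.0444 over both mice and from -0.0596 to -0.00867 between tibias. The difference for Cenpk ran from -0.0104 (without femur library 2 of mouse 19) to 0.23.

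Over all genes and both mice, 284 to 498 were called higher and 279 to 490 lower with 1 library left out, 50 and 24 with no mouse term, and 48 and 17 on sums per animal, which have fewer residual degrees of freedom. The replicate block, with the library number as a block within each mouse, called 239 higher and 256 lower over all genes, and 19 members in mouse 7, 8 in mouse 19 and 23 for the difference. Over all genes, no shared deviation of same-numbered libraries of a mouse was seen (correlations of -0.05 to 0.00, against -0.06 to 0.06 for other pairs). Whether they share handling, or an effect on some genes, was not tested. The cause of the other shifts was not tested. Changes of the members are small (median 0.15 on the log2 scale in mouse 7), each group is 1 animal with 3 libraries, and the difference between mice could not be tested on sums per animal, which leave no residual degrees of freedom. Counting error was largest for Cenpk and Pttg1, whose counts were the lowest.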
